A study of Rattus norvegicus with 4 samples.

Results

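The 10 genes described here make and regulate MHC class II, the cell surface complex that shows peptides to CD4 T cells. They are the chains RT1-Da, RT1-Db1, RT1-Ba, RT1-Bb, RT1-DMa, RT1-DMb, RT1-DOa and RT1-DOb, the invariant chain Cd74 and the transactivator Ciita. Members were all non-control array probes whose gene name in the files was one of these symbols, whatever their values, which gave 12 of 30367 probes and 10 of 22136 gene names. Of the 10 genes, 9 were bright enough to be tested, among 12858 genes tested in all. All 9 averaged lower in the cells of liposome-injected rats than in those of saline-injected rats, by 1.17-fold to 1.66-fold, where 53.9% of all genes averaged lower. RT1-DOa and RT1-Db1 passed the test.

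The groups were liposome (2 arrays) and saline (2 arrays), all from spleens of male WKAH rats aged 8 to 12 weeks, removed 24 h after injection. What the liposomes were made of and their dose are not given in the sources used here. In both groups, beads with the antibody OX-6 first took away cells bearing MHC class II, and beads with OX-42 then retained cells bearing CD11b/c, an integrin pair of myeloid cells, so the genes of the removed antigen are measured in the cells that passed the removal. Nothing in the labels says that the 2 arrays of a group came from different animals. The p-values therefore speak for the spread among these 4 arrays alone, which may be technical.

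As background, a class II molecule is a pair of an alpha and a beta chain. RT1-D and RT1-B are the rat counterparts of human HLA-DR and HLA-DQ, and OX-6 recognises RT1-B. The invariant chain, Cd74, fills the groove of newly made pairs and guides them to endosomes, where proteases trim it. RT1-DM then helps exchange the remaining fragment for antigen peptides, and RT1-DO restrains DM, as known mainly from B cells and dendritic cells of human and mouse. Ciita switches these genes on together, without touching DNA itself, through factors bound at the X and Y boxes of their promoters. Dendritic cells, B cells and some macrophages are the usual carriers of class II.

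The promoter stretch through which Ciita acts is shown for the chains that have it in the table used. Its part in the values below was not tested. Promoter windows from RefSeq (assembly GRCr8) were found for 8 of the 10 genes, all but RT1-DMb and Ciita. The capitals mark GNNAC, letters within the X box, and GATTGG, the Y box, which is the CCAAT box read on its other strand. The pair was searched in the 250 bases before the gene start, with 20 to 28 bases between the 2 parts, after the sequences had been seen. For these 8 genes the search read the gene's own strand only. For the count over all promoters it read both strands.
RT1-Da, chr20:4515327-4515376, plus strand: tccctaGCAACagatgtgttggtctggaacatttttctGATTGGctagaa
RT1-Db1, chr20:4560232-4560280, minus strand: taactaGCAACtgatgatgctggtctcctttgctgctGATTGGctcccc
RT1-Ba, chr20:4576975-4577024, plus strand: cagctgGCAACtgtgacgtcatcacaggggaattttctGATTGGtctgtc
RT1-Bb, chr20:4604169-4604217, minus strand: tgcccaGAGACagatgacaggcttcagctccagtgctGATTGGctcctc
RT1-DMa, chr20:4712389-4712438, minus strand: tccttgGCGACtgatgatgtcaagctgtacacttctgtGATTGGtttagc
RT1-DOa, chr20:4758520-4758569, minus strand: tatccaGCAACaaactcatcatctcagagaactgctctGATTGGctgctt
RT1-DOb, chr20:4627596-4627642, minus strand: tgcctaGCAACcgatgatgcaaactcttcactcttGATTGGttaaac
All 7 class II chain genes with a promoter window held the pair on their own strand, 24 to 27 bases apart. The window of Cd74 did not hold these letters at the searched spacing on its own strand, and its other strand was not searched. Of all 27457 promoters in the table, 474 (1.73%) held the pair on either strand, and 13.8% held GATTGG alone. A match is a description of the letters and not a measurement of binding.

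The arrays carried 60-base probes and 1 dye. Between 61.3% and 66.3% of the spots on each array were well above background, and none was saturated. Over all genes, the arrays of a group correlated at 0.993 (liposome) and 0.989 (saline), and arrays of different groups at 0.971 to 0.975. Limma called 8.89% of all genes, 522 lower (4.06%) and 621 higher (4.83%) in the liposome arrays at an adjusted p under 0.05, and 442 lower and 852 higher when each array was scaled to its median instead. The calls depended on single arrays, with 0 genes called without liposome 1 or without liposome 2, 499 without saline 1 and 372 without saline 2.

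Values are given as scaled intensity, the spot intensity divided by the 75th percentile intensity of its array. Different probes bind with different strength, so levels are compared between arrays and never between genes. Fold changes are log2 differences of liposome minus saline with limma's standard error (SE, n = 2 arrays per group), and p-values were adjusted by Benjamini and Hochberg's method over all 12858 genes. In RNA of a mixed fraction, fewer cells of a type and less RNA per cell cannot be told apart.

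Among the 9 tested genes, limma called 2 lower and 0 higher, where the background of lower calls was 4.06%. At an unadjusted p under 0.05 the counts were 7 lower and 0 higher, where 16.6% of all genes were lower and 16% higher. In 8 of the 9, both liposome arrays lay below both saline arrays, where 35.1% of all genes did. The median log2 difference of the 9 was -0.43, or 1.35-fold lower, beside a median of -0.04 for all genes tested. The genes stood between the 6.73 and 29.7 percentiles of all log2 differences, with a median at 16.1, so they lay in the lower part of the distribution without reaching its far end.

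**Figure D1:**
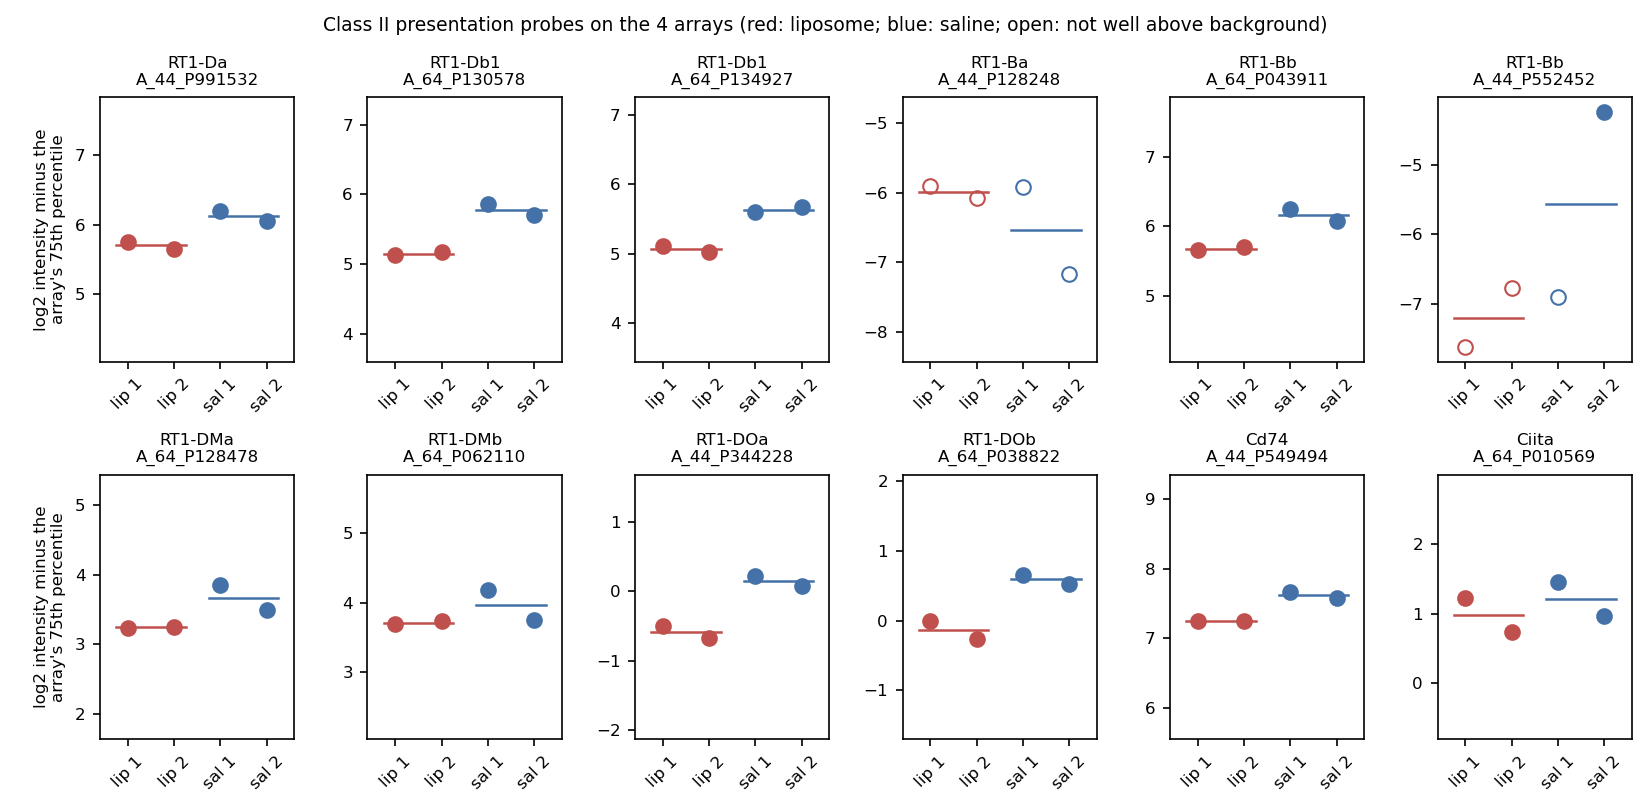
Log2 intensity minus the 75th percentile of each array, for the 12 probes of the 10 genes, 1 panel per probe, with panels of equal span. Points are single arrays, liposome in red on the left and saline in blue on the right, lines are group means (n = 2), and open points are not well above background. In 9 of the 10 panels with filled points throughout, both red points lie under both blue points, and in the Ciita panel they overlap.

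RT1-DOa and RT1-DOb encode the alpha and beta chains of DO, the modulator of DM. Their probes are shown because these 2 genes had the lowest log2 differences of the 9. The RT1-DOa probe lies at chr20:4891130-4891189 (minus strand) and the RT1-DOb probe at chr20:4754386-4754445 (minus strand), both in rn4 coordinates.
RT1-DOa probe: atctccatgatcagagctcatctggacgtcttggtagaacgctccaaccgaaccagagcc
RT1-DOb probe: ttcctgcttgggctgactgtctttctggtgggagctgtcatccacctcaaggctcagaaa
RT1-DOa had scaled intensities of 0.707 and 0.630 in the liposome arrays, against 1.16 and 1.06 in the saline arrays. The groups did not overlap, and the gap between them was wider than the spread within either. RT1-DOa fell 1.66-fold, with a log2 difference of -0.73 ± 0.12 (SE, n = 2 per group) and an adjusted p of 0.0425 in limma. Without single arrays the limma adjusted p was 0.183 (liposome 1), 0.219 (liposome 2), 0.0878 (saline 1) and 0.0683 (saline 2), and the call ended each time.

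RT1-DOb had scaled intensities of 1.0 and 0.835 in the liposome arrays, against 1.58 and 1.44 in the saline arrays. Both liposome values again lay below both saline values. The log2 difference was -0.72 ± 0.14 (SE, n = 2 per group), with a limma adjusted p of 0.052 that missed the threshold and a 95% interval of -1.09 to -0.36. It differed from that of RT1-DOa by 0.01, far less than the combined SE of 0.18, which treats the genes as independent although they share the arrays.

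RT1-Da and RT1-Db1 encode the alpha and beta chains of RT1-D, a classical molecule that presents peptide. The probe of RT1-Db1, the other gene to pass the test, lies at chr20:4672665-4672724 in rn4 (minus strand).
RT1-Db1 probe: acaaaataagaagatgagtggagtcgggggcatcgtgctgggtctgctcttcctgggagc
RT1-Db1 read 35.1 and 35.9 in scaled intensity in the liposome arrays, against 58.1 and 52.1 in the saline arrays. It fell 1.55-fold, with a log2 difference of -0.63 ± 0.11 (SE, n = 2 per group) and an adjusted p of 0.045 in limma. A second probe of the gene, at chr20:4671516-4671575, which did not enter the fit, read 34.6 and 32.7 in the liposome arrays and 48.7 and 50.8 in the saline arrays. The groups did not overlap on either probe, and the second gave a log2 difference of -0.57. Whether these probes also bind close copies of the gene was not tested. The call on the first probe ended with quantile normalization (limma adjusted p 0.0736). It also ended without liposome 1 (0.257), liposome 2 (0.223), saline 1 (0.0827) or saline 2 (0.0621).

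RT1-Da, the partner of RT1-Db1, was read by a probe at chr20:4641104-4641163 in rn4 (plus strand). Its scaled intensity was 54.0 and 50.4 in the liposome arrays, against 73.7 and 66.1 in the saline arrays. The groups did not overlap, but the log2 difference of -0.42 ± 0.11 (SE, n = 2 per group; 95% interval -0.72 to -0.11) had a limma adjusted p of 0.0904.

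RT1-Ba and RT1-Bb encode the chains of RT1-B, the molecule that OX-6 binds, so both of their best probes are shown. The RT1-Bb probe lies at chr20:4732187-4732246 (minus strand) and the RT1-Ba probe at chr20:4700973-4701032 (plus strand) in rn4.
RT1-Bb probe: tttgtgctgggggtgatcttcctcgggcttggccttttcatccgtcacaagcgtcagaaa
RT1-Ba probe: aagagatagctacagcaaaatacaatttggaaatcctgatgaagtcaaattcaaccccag
RT1-Bb read 50.3 and 52.3 in scaled intensity in the liposome arrays, against 76.3 and 67.7 in the saline arrays. The liposome arrays lay below both saline arrays, with a log2 difference of -0.49 ± 0.11 (SE, n = 2 per group), a 95% interval of -0.79 to -0.19 and a limma adjusted p of 0.0692. A second RT1-Bb probe, of which the files place 51 of the 60 bases at chr20:4730533-4730583, was well above background on saline 2 only and was not tested.

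RT1-Ba, the partner of RT1-Bb, was the 1 gene of the 10 without a usable level. Its unscaled intensity was 18.3 and 15.6 in the liposome arrays and 15.9 and 6.93 in the saline arrays, not well above background on any of the 4. No fold is given for it, and whether its probe matches the alleles of WKAH rats was not tested. The retained cells had a clear signal for the beta chain of RT1-B and for both chains of RT1-D in both groups, and no usable reading of the RT1-B alpha chain.

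RT1-DMa and RT1-DMb encode the chains of DM, the peptide exchange factor. The RT1-DMa probe, at chr20:4844372-4844431 (minus strand, rn4), read 9.39 and 9.54 in the liposome arrays, against 14.4 and 11.3 in the saline arrays. Its log2 difference was -0.43 ± 0.15 (SE, n = 2 per group; 95% interval -0.84 to -0.02), with a limma adjusted p of 0.144. The groups did not overlap, although the saline arrays were further apart than the liposome arrays.

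RT1-DMb was measured at chr20:4830313-4830372 (minus strand, rn4). Scaled intensities were 12.9 and 13.3 in the liposome arrays, against 18.2 and 13.5 in the saline arrays. Saline 2 lay just above liposome 2, by 0.02 in log2, so the separation of the groups rested on saline 1. The log2 difference of -0.26 ± 0.18 (SE, n = 2 per group) had a 95% interval of -0.73 to 0.22 and a limma adjusted p of 0.362.

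Cd74, the invariant chain, was read at chr18:56765468-56765527 (plus strand, rn4). Its scaled intensity was 151.5 and 152 in the liposome arrays, against 201.8 and 191 in the saline arrays. The groups were clearly apart and close within themselves, with a difference of 1.29-fold. In log2 this was -0.37 ± 0.10 (SE, n = 2 per group; 95% interval -0.63 to -0.11), with a limma adjusted p of 0.0843.

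Ciita, the transactivator that the others depend on, was read at chr10:5087176-5087235 (minus strand, rn4). It had scaled intensities of 2.34 and 1.67 in the liposome arrays, against 2.74 and 1.94 in the saline arrays. The groups overlapped, since liposome 1 lay above saline 2. The log2 difference was -0.22 ± 0.26 (SE, n = 2 per group), with a 95% interval of -0.92 to 0.47 and a limma adjusted p of 0.575, and it turned to 0.02 without liposome 2 or without saline 1. Within each group the array titled exp2 read lower than the array titled exp1, by a log2 difference of -0.49 in liposome and -0.50 in saline. This exceeded the difference between the groups, and the labels do not say what the title number marks.

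**Figure D2:**
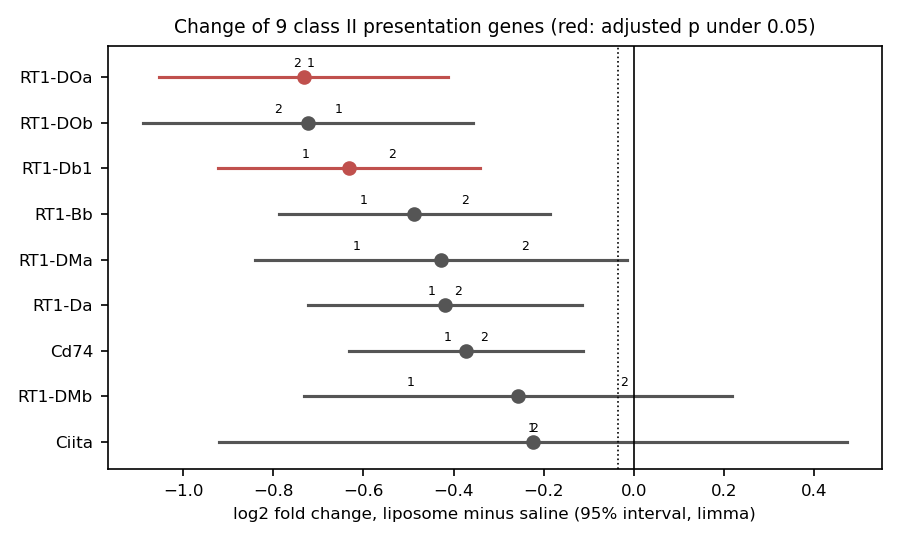
Log2 difference, liposome minus saline, of the 9 tested genes (horizontal axis), with 95% limma intervals from 2 arrays per group. Red marks an adjusted p under 0.05, small digits mark the difference between the arrays of the same title number, and the dotted line is the median of all genes tested, -0.04. All 9 points lie left of 0, 7 intervals do not reach 0, and those of RT1-DMb and Ciita do.

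Ordered by log2 difference, the genes ran from RT1-DOa through RT1-DOb, RT1-Db1, RT1-Bb, RT1-DMa, RT1-Da, Cd74 and RT1-DMb to Ciita. Each gap between neighbours was smaller than 1 combined SE, the widest being 0.14 between RT1-Db1 and RT1-Bb. The combined SE treats the genes as independent, but all were read on the same arrays and can share array deviations. It therefore cannot decide whether neighbours in this order differ, and differences between genes within each array were not tested. The outermost genes, RT1-DOa and Ciita, differed by 0.51 with a combined SE of 0.28. All 9 were lower in liposome than in saline within title number 1, by a median of -0.60, and within title number 2, by a median of -0.37. Within a group, the median log2 difference (array 2 minus array 1) was 0.01 in liposome and -0.16 in saline. In liposome the sign differed among genes, so this median does not measure how alike the arrays were. RT1-DOa (-0.17 in liposome, -0.14 in saline) and RT1-DOb (-0.26 in liposome, -0.13 in saline) differed more between the liposome arrays. The other tested members differed more between the saline arrays.

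Among other class II loci, 1 of the 4 listed genes was found by its symbol on the array, and the other 3 were not analysed here. RT1-Ha, annotated as a class II locus, had scaled intensities of 0.213 and 0.215 in the liposome arrays, against 0.324 and 0.308 in the saline arrays. It fell 1.48-fold, with a log2 difference of -0.56 ± 0.10 (SE, n = 2 per group) and a limma adjusted p of 0.0453. The call ended with median scaling (0.0553), without liposome 1 (0.266), liposome 2 (0.237), saline 1 (0.0859) or saline 2 (0.0699).

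The factors that bind the X and Y boxes (the RFX and NF-Y subunits and Creb1) did not pass the test in either direction. Of the 7, 6 were tested and 0 were called by limma, with 1 lower and 1 higher at an unadjusted p under 0.05. Their median log2 difference was -0.06, near that of all genes, and ran from -0.37 for Nfyb to 0.27 for Rfxank. Rfx5, a subunit of RFX, was well above background on 1 array only and was not tested.

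Of 14 genes that act on Ciita expression, 2 fell, 0 rose and 12 did not pass, beside a background of 4.06% called lower. Their median log2 difference was -0.10. At an unadjusted p under 0.05, 4 were lower and 1 higher, where 16.6% of all genes were lower and 16% higher. The higher one, named after its value was seen, was Ifngr1, a chain of the interferon gamma receptor (log2 0.80, limma adjusted p 0.0803). Irf1, an interferon-induced transcription factor that acts at a Ciita promoter, had scaled intensities of 42.2 and 48.3 in the liposome arrays, against 88.5 and 81.8 in the saline arrays. It fell 1.88-fold (log2 -0.91 ± 0.12 SE, n = 2 per group, limma adjusted p 0.0308). Socs1, an inhibitor of the JAK-STAT pathway, had 0.0664 and 0.0759 in the liposome arrays, against 0.132 and 0.124 in the saline arrays, a fall of 1.80-fold (log2 -0.85 ± 0.12 SE, limma adjusted p 0.0337). Neither call held without liposome 1 (0.178 for Irf1, 0.191 for Socs1), liposome 2 (0.143, 0.149), saline 1 (0.0735, 0.0784) or saline 2 (0.0621, 0.0659).

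The antigen processing list covers genes that process antigen or trim the invariant chain. It also holds the protease inhibitor Cst3 and the ubiquitin ligases Marchf1 and Marchf8. Of its 12 tested genes, 6 rose, 0 fell and 6 did not pass, beside a background of 4.83% called higher. Their median log2 difference was 0.68, and 3 of the 12 averaged lower. With normexp background correction 7 rose and 1 fell, beside 897 of all 12858 genes called higher and 823 called lower. Lgmn, an asparagine-specific endosomal protease, had scaled intensities of 31.4 and 30.9 in the liposome arrays, against 7.29 and 5.95 in the saline arrays, which was 4.73-fold higher (log2 2.24 ± 0.14 SE, n = 2 per group, limma adjusted p 0.00892). Ctsd, the aspartic protease cathepsin D, had 182 and 166 in the liposome arrays, against 44.3 and 40.7 in the saline arrays (4.10-fold higher, limma adjusted p 0.00799). These 2 genes thus differed between the groups by more than any tested class II chain did.

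Ctsl, encoding cathepsin L, rose 2.39-fold, to scaled intensities of 13.3 and 12.5 in the liposome arrays, against 5.51 and 5.29 in the saline arrays (limma adjusted p 0.0137). Ctsb, encoding cathepsin B, rose 2.05-fold, to 205 and 211 in the liposome arrays, against 112 and 91.4 in the saline arrays (limma adjusted p 0.0312). The other genes that rose, named after their values were seen, were Marchf8, a ubiquitin ligase (log2 0.93, limma adjusted p 0.0216), and Ifi30, a lysosomal thiol reductase (log2 0.72, limma adjusted p 0.0413). Ctss, which trims the invariant chain in antigen-presenting cells of mouse and human and was also chosen after its values were seen, had 30.6 and 28.8 in the liposome arrays and 29.9 and 21.6 in the saline arrays. Its groups overlapped, with a log2 difference of 0.23 ± 0.19 (SE, n = 2 per group; limma adjusted p 0.445). The number of genes that rose was 4 with quantile normalization, 0 without either liposome array, 4 without saline 1 and 3 without saline 2.

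Costimulatory molecules are the second signal to T cells, and MHC class I shows peptides to CD8 T cells. Of 6 tested genes of the costimulation list, which also holds the T cell inhibiting ligands Cd274 and Pdcd1lg2, limma called 0. Their median log2 difference was 0.11, with 1 lower and 3 higher at an unadjusted p under 0.05. The lower one, named after its value was seen, was Cd40 (log2 -0.57). The higher ones, named likewise, were Icoslg (log2 0.51), Cd274 (0.59) and Pdcd1lg2 (0.36). Cd80 was well above background on 1 array only and was not tested. The class I list holds B2m and genes of peptide supply and loading, and no class I heavy chain, so it does not describe those chains. Of its 13 genes tested, limma called 0, and their median of -0.01 lay near that of all genes. At an unadjusted p under 0.05, 3 were lower and 1 higher, named after their values were seen. They were Tap2 (log2 -0.74), Tap1 (-0.53) and Psmb9 (-0.33), and Canx (0.41).

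**Figure D3:**
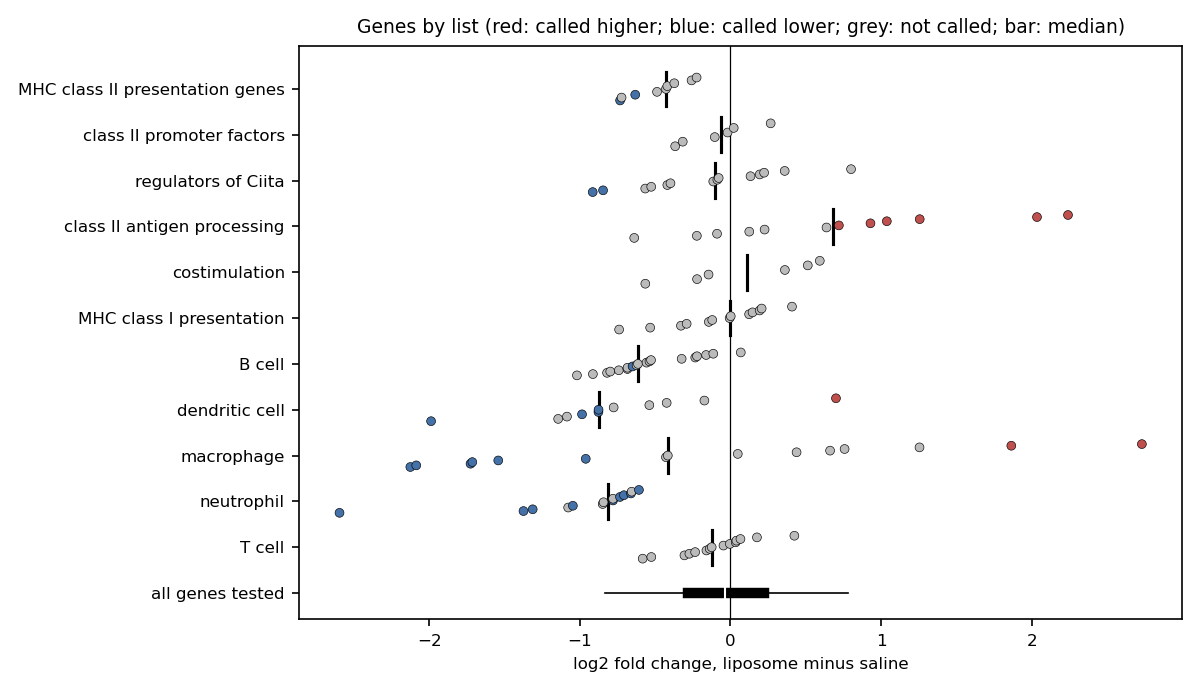
Log2 difference, liposome minus saline (horizontal axis), of every tested gene of each list, 1 point per gene, with the median of each list as a bar. The bottom row gives all genes tested, with the 25th to 75th percentile as a thick line (-0.28 to 0.23), the 5th to 95th as a thin line (-0.83 to 0.78) and the median as a white tick. The class II members lie left of 0, the antigen processing list lies mostly to the right with a median of 0.68, and the B cell, dendritic cell and neutrophil lists lie mostly to the left.

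Markers of cells that can carry class II or can pass the 2 bead steps were measured on the same arrays, and their part in the class II values was not tested. The background for each marker list is that of all genes tested, 4.06% called lower and 4.83% called higher. All 19 B cell markers were well above background on all 4 arrays. Of these, 18 averaged lower in liposome, 1 was called lower, and their median log2 difference was -0.61. At an unadjusted p under 0.05, 12 were lower and 0 higher. With normexp 3 were called lower, beside 823 of all 12858 genes. Their summed scaled intensity was 59.1 to 76.6 in the liposome arrays and 101 to 105 in the saline arrays. The 1 called was Cd37, a membrane protein of mature B cells (2.50 and 2.75 in the liposome arrays, against 4.27 and 3.97 in the saline arrays, limma adjusted p 0.0444). Its call ended without any 1 of the 4 arrays (0.0712 to 0.26).

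Of 16 dendritic cell markers, 11 were tested. Limma called 4 lower and 1 higher, the median log2 difference was -0.88, and the summed scaled intensity was 6.66 to 7.18 in the liposome arrays and 12.6 to 13.4 in the saline arrays. The lectin gene Clec10a (log2 -1.99, limma adjusted p 0.0193) and the growth factor receptor gene Flt3 (log2 -0.99, limma adjusted p 0.0267) had the largest falls among those called. Siglech (log2 -1.14, limma adjusted p 0.0615) and Clec9a (log2 -1.09, limma adjusted p 0.054), named after their values were seen, had lower log2 differences than Flt3 but did not pass. The 1 called higher, also named afterwards, was Cadm1 (log2 0.70, limma adjusted p 0.0494). Its call ended with quantile normalization (limma adjusted p 0.0504). Ccr7, named likewise, had overlapping groups (log2 -0.17). Zbtb46, Xcr1, Cd209a, Itgae and Snx22, which mark dendritic cells or their subsets, were well above background on 0 arrays. The lower calls of this list numbered 0 without liposome 1, 0 without liposome 2, 4 without saline 1 and 1 without saline 2, and Flt3 was not called without saline 2 (limma adjusted p 0.0545).

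The macrophage markers, checked because the study title calls the cells splenic macrophages, split in direction. Of 16, 15 were tested and 14 were well above background on all 4 arrays, while Marco was so on 0 arrays. Limma called 6 lower and 2 higher, with a summed scaled intensity of 86.1 to 95.2 in the liposome arrays and 113 to 114 in the saline arrays. The median log2 difference of the 15 was -0.42, beside -0.43 for the class II members, with 8 lower and 7 higher in mean. This macrophage median was -0.66 without saline 2 and -0.003 without saline 1. Cd5l, a secreted protein of tissue macrophages, fell (log2 -2.13, limma adjusted p 0.0118). Mertk, a receptor for dying cells, was well above background on both liposome arrays and on neither saline array (limma adjusted p 0.016). It was at least 6.38-fold higher in liposome, set against the higher of its own value and the lowest value well above background on each saline array. This bound holds for the main processing only, since the fitted log2 difference of Mertk was 1.47 with normexp and 2.44 without saline 2, against 2.73. The calls numbered 5 lower and 5 higher with median scaling, 0 in either direction without either liposome array, 2 lower and 3 higher without saline 1, and 1 lower and 2 higher without saline 2.

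Neutrophil markers summed to a scaled intensity of 161 to 184 in the liposome arrays and 279 to 321 in the saline arrays. All 14 tested averaged lower, with a median log2 difference of -0.81. Of these, 9 fell by limma's call and 0 were called higher. Fpr1, a receptor for formyl peptides (log2 -2.60, limma adjusted p 0.00752), and Cd177, a neutrophil surface protein (log2 -1.37, limma adjusted p 0.0224), fell most in this list. The count that fell was 0 without either liposome array and 3 without saline 1 or without saline 2. T cell markers had summed scaled intensities of 32.7 and 61.4 in liposome 1 and liposome 2 and of 31.4 and 78.2 in saline 1 and saline 2. In both groups, 13 of the 15 tested were higher on the array titled exp2, and Cd4 and Cd8b were lower on it. Limma called 0 of 15 T cell markers, with 1 lower and 0 higher at an unadjusted p under 0.05. Itgam, Itgax and Itgb2, the genes of the CD11b/c antigen and its partner chain, had log2 differences of 0.46, -0.42 and -0.31, and limma called 0 of the 3 (1 lower at an unadjusted p under 0.05).

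The 5 genes whose pattern over the 4 arrays was most like the members' median pattern were Sp110, Ifi203-ps1, RGD1565161, Rnf167 and Pitpnm1. Likeness was the root mean square difference between log2 values centred on each gene's mean, among 5006 genes. These were not members, were well above background on all 4 arrays and had a log2 difference of at least 0.3 in size. The likeness value is smaller for a closer match. This value was 0.00749 for Sp110 and 0.0248 for Pitpnm1, while that of the members themselves ran from 0.0355 for RT1-Bb to 0.235 for Ciita. The median pattern of the members was -0.23 and -0.26 in the liposome arrays and 0.36 and 0.15 in the saline arrays. With 4 arrays and 5006 genes, close matches of this kind are a description of these arrays only.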

How the data were processed

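Each array held 1 Cy3-labelled RNA sample (0.2 ug per the labels' protocols). Per the submitters' processing notes, the scans were quantified by Agilent Feature Extraction 10.7.3.1. The deposited values are linear spot intensities. Per the file headers, the processed intensity is background-corrected within each array and not scaled between arrays. The mean and background intensities, also deposited, served 1 alternative.

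Control spots were left out, which left 42877 spots, and outlier-marked spots among these were left out too. The log2 of each deposited intensity, minus the array's 75th percentile, was used. A probe was kept if it was well above background on both liposome or both saline arrays. A gene's brightest probe stood for it. Accessions of 18006 of 30367 probes matched a RefSeq gene list and took its symbols, 8186 kept the file's name and 4175 had none. Limma 3.58.1 in R 4.3.3 (lmFit, eBayes; data.table, version 1.17.8) fitted 12858 genes, and tests were checked on simulated data. Probe positions are those of the files (rn4); no annotation of that assembly was used, so exon or intron is not given. Promoters come from RefSeq (GRCr8).

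Named were all members, up to 4 called genes with the largest log2 difference per pathway list, up to 2 per marker list, and the 5 most alike genes. Members and lists were chosen with earlier results of these data known. For arrays, their number limits the precision.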

Additional observations from a re-analysis of the deposited data

How the results depend on the processing

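With 2 arrays per group, calls depended on the processing more than directions did. Of 99 member values recomputed, 97 kept their direction. The exceptions were Ciita at 0.0215 without liposome 2 and 0.0245 without saline 1 (-0.474 to 0.0245 over the fits without single arrays). Part of the 99 values could not change direction. The replicate block, the fit without the filter and the fit with all 4 arrays required left each tested member's log2 difference at its main value. Averaging a gene's kept probes changed only RT1-Db1. Limma called 1143 genes, 1720 with normexp background correction, 0 of 21971 without the filter on dim probes (3005 at an unadjusted p under 0.05), 1816 with the title number as a replicate block, and 0 to 499 without single arrays (2177 at an unadjusted p under 0.05 without liposome 1 and 2397 without liposome 2). Of the 9 tested members, 2 were called lower, against 1 with quantile normalization, 4 with normexp, 3 with only probes well above background on all 4 arrays, 0 without the filter (4 at an unadjusted p under 0.05) and 0 without any 1 of the 4 arrays. In those fits without liposome 1, liposome 2, saline 1 or saline 2, the members lower at an unadjusted p under 0.05 numbered 3, 3, 5 and 8, beside 9.22%, 9.63%, 15.5% and 18.4% of all genes. No alternative tried called a member higher. Over all genes, the lower calls numbered 522 in the main fit, 429 with quantile normalization, 823 with normexp and 553 with all 4 arrays required. Without the filter, 7.06% of all genes were lower at an unadjusted p under 0.05. RT1-DOb passed with normexp (0.0332), with all 4 arrays required (0.0446) and with the replicate block (0.0337), and RT1-Bb passed with normexp (0.0461). The median of the members was -0.43, and ran from -0.57 without saline 2 to -0.34 without saline 1. A fit without 1 array leaves 1 array in its group, which is assumed to vary like the others. Arrays of the same title number deviated together (correlation 0.355 over 12858 genes), but there are only 2 numbers and the labels do not explain them. The replicate block called 3 members lower instead of 2. Over all 12858 genes it called 988 lower instead of 522 and 828 higher instead of 621, so calls rose beyond these lists too. It also called lower 6 B cell markers instead of 1, 6 dendritic cell markers instead of 4 and 13 neutrophil markers instead of 9. It called 5 macrophage markers higher instead of 2. In the costimulation list it called 1 gene lower and 1 higher instead of 0, and in the antigen processing list 1 lower instead of 0. The fit without the filter tests more genes, with noisier spots. The cause of the other differences was not tested.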
